A study of Mus musculus with 6 samples.

Results

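The GIMAP genes (GTPases of immunity-associated proteins) were followed in RNA-seq libraries of mouse Th17 cultures labelled WT or knockout for pyruvate dehydrogenase (PDH). Their 8 members were taken by name (Gimap1, Gimap3, Gimap4, Gimap5, Gimap6, Gimap7, Gimap8 and Gimap9), and all 8 were present among the 15452 genes of the count table and passed the filter on low counts. Both groups carried floxed PDH alleles: 3 WT libraries came from mice without Cre, and 3 knockout libraries from mice that also carried CD4 Cre, which deletes floxed DNA in the T cell lineage from the thymus onward. The genotype labels and culture protocol write PDH, whereas the sample titles write PHD. Naive CD4+ T cells from spleen and lymph node were sorted on magnetic beads and grown for 3 days with plate-bound anti-CD3 (5 µg/mL), anti-CD28 (1 µg/mL), IL-6 (30 ng/mL), TGFβ (2 ng/mL) and an antibody to interferon γ (5 µg/mL). The comparison asks how transcripts differ in Th17 cells labelled as knockout for PDH, the mitochondrial complex that makes acetyl-CoA from pyruvate. Because only the knockout mice carried Cre, its own effects and those of the deletion cannot be told apart. The labels do not say whether the replicates came from separate animals, so p-values measure the spread between these libraries, which may be technical.

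GIMAP proteins are small GTP-binding proteins made mainly by lymphocytes, and most of them sit on the membranes of organelles such as lysosomes, the endoplasmic reticulum, mitochondria and lipid droplets. Resting T and B cells hold high levels of several of them, and loss of Gimap1 or Gimap5 leaves mice with too few mature lymphocytes. The genes lie side by side in a cluster, which is on chromosome 6 in the mouse. They pair with each other as GTPases: some members bind GTP without splitting it, and others speed its hydrolysis in their partners.

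Total counts ran from 33802154 to 40407124 per library. Levels are given as CPM, counts relative to the library total, scaled by TMM. Pdha1, the PDH E1 alpha subunit gene, was at 255.76, 236.09 and 250.85 CPM in WT replicates 1 to 3. In knockout replicates 1 to 3 Pdha1 was at 198.43, 193.37 and 185.85 CPM (log2 fold change -0.36 ± 0.06). The groups did not overlap, and 29.4% of all tested genes also lay wholly below WT. Of the PDH complex genes Dlat and Pdhb, Dlat was called lower (-0.68 ± 0.06, adjusted p = 3.55e-05, edgeR). Pdhb was not called (-0.14 ± 0.06, adjusted p = 0.0630, edgeR). Counts over a whole gene do not show the loss of an exon, nor which gene was floxed. The Th17 cytokine gene Il17a and the T cell markers Cd3e and Cd4 were above 50 CPM in every library. Of 4 Th17 markers 3 were called lower in the knockout: Il17a (-1.31 ± 0.08, from 154 ± 6.41 to 62.2 ± 6.71 CPM), Il17f (-1.19 ± 0.19) and Il23r (-2.28 ± 0.18). Knockout replicate 2 stood apart in that 4.948% of its counts fell on a single unnamed entry, while no entry took more than 1.40% elsewhere. Across all genes 47.6% were called (7311 of 15361 tested, 3548 higher and 3763 lower), so a call by itself was common here. The higher genes made up 48.53% of the calls with TMM factors and 59.95% with upper-quartile factors.

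Of the 8 GIMAP genes, 5 fell in the knockout (Gimap7, Gimap6, Gimap4, Gimap3 and Gimap9), none rose and 3 were not called (Gimap1, Gimap8 and Gimap5). Among all tested genes 24.5% were called lower. With upper-quartile factors Gimap7, Gimap6 and Gimap4 were still called lower, 3 of 8, as were 2927 of all 15361 tested genes. All 3 knockout libraries lay below all 3 WT libraries in the same 5 genes that were called, and in no member did they lie above; over all tested genes 29.4% lay wholly below, 28.8% wholly above, and 24.1% were both wholly below and called. The median log2 fold change of knockout over WT was -0.26 over the 8 genes and 0.01 over all tested genes. The decreases were unequal, from 2.58-fold for Gimap7 to 1.16-fold for Gimap9. Calls are from edgeR's quasi-likelihood test at 0.05, with p-values adjusted by the Benjamini-Hochberg method across every tested gene, and changes are given as log2 fold change ± SE. In bulk RNA, fewer cells that make a transcript and less of it per cell cannot be told apart.

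**Figure D1:**
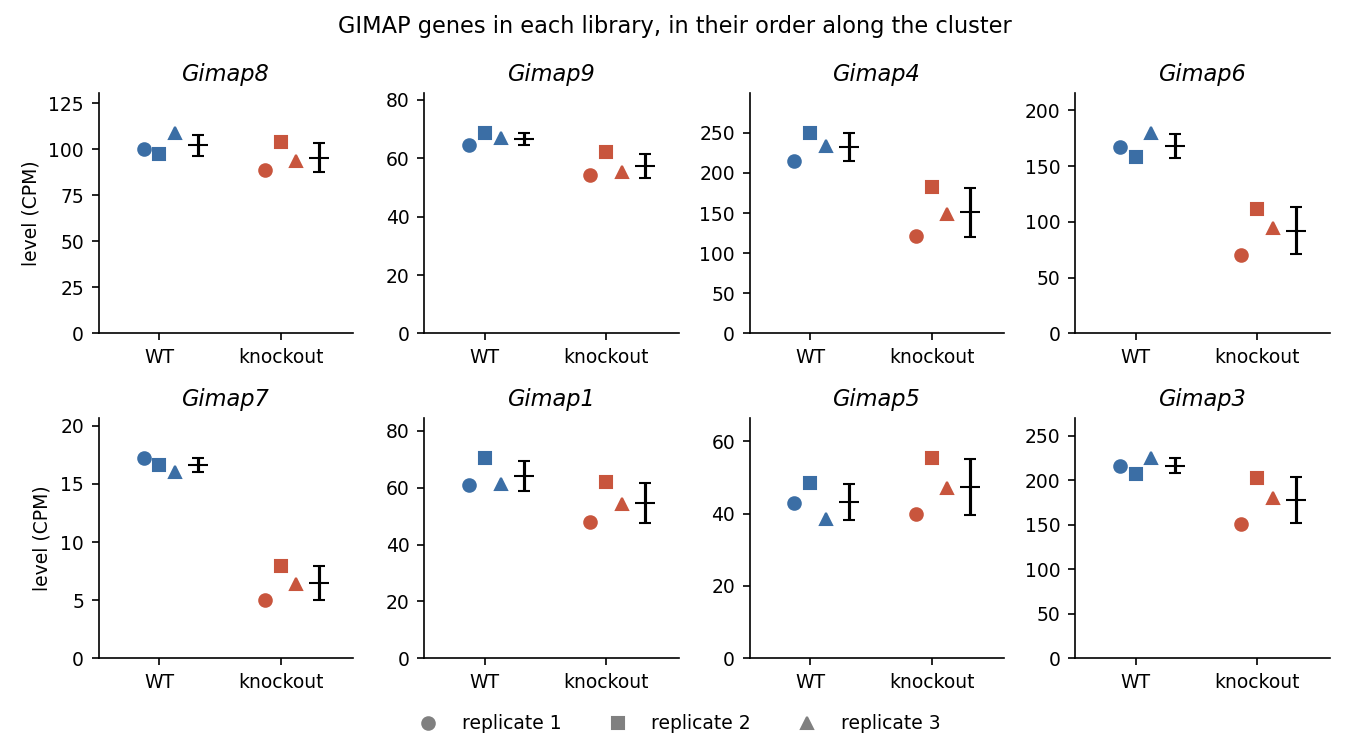
Level of each GIMAP gene in CPM (TMM-scaled, y axis from 0) in the 3 WT and 3 knockout libraries; symbols mark the replicate, and black marks give the mean ± SD (n = 3). The knockout points of Gimap7, Gimap6 and Gimap4 lie well below all WT points, those of Gimap9 and Gimap3 lie just below, and those of Gimap1, Gimap8 and Gimap5 overlap WT.

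Gimap7 (ENSMUSG00000043931.11), whose human counterpart speeds GTP hydrolysis by another family member, showed the steepest decrease of the family. It was at 17.2, 16.6 and 15.99 CPM in the WT libraries and at 5.05, 7.96 and 6.35 CPM in the knockout libraries. All knockout values thus lay below 8 CPM and all WT values near 16 or 17 CPM. The change was -1.37 ± 0.15 (adjusted p = 0.000125, edgeR). These levels rest on 635 to 647 counts per WT library and 204 to 278 counts per knockout library.

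Gimap6 (ENSMUSG00000047867.12) encodes a protein that binds GABARAPL2 and takes part in autophagy. Its level was 168, 158 and 179 CPM in WT and 70.3, 112 and 94.8 CPM in the knockout. The groups were apart, with knockout replicate 1 the lowest and replicate 2 the closest to WT. The change was -0.87 ± 0.16, a 1.83-fold decrease (adjusted p = 0.00567, edgeR).

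Gimap4 (ENSMUSG00000054435.17), which is linked to the pace of T cell apoptosis, was the most abundant member per length in WT. It was at 215, 249 and 233 CPM in WT and at 121, 183 and 148 CPM in the knockout, again without overlap. The change was -0.62 ± 0.15, a 1.54-fold decrease (adjusted p = 0.0113, edgeR). Without WT replicate 2 the call was lost (-0.57, adjusted p = 0.0681, edgeR), and it held when any other library was left out. Gimap7 and Gimap6 stayed called without any 1 of the 6 libraries (highest adjusted p = 0.00121 and 0.0327, edgeR). Gimap7, Gimap6 and Gimap4 were also the 3 members that passed a test against a fold change of 1.2, which 12.1% of all tested genes passed as lower.

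Gimap3 (ENSMUSG00000039264.10) and Gimap5 (ENSMUSG00000043505.9) are sister genes, of which Gimap3 was called and Gimap5 was not. Gimap3, which affects how mitochondrial DNA variants are sorted in mouse leukocytes, was at 216, 208 and 225 CPM in WT and at 151, 202 and 180 CPM in the knockout, so knockout replicate 2 came close to the WT range without entering it. The change of Gimap3 was -0.28 ± 0.10 (adjusted p = 0.0386, edgeR). Leaving out 1 library ended that call in 5 of 6 cases: adjusted p (edgeR) was 0.0908, 0.0672 and 0.113 without WT replicates 1, 2 and 3, and 0.0753 and 0.0877 without knockout replicates 1 and 3. Without knockout replicate 2 Gimap3 was at -0.39 (adjusted p = 0.00725, edgeR).

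Gimap5, a lysosomal protein needed for the survival of resting T cells, was the only member with a higher mean in the knockout. It was at 43.0, 48.5 and 38.4 CPM in WT and at 39.9, 55.4 and 47.2 CPM in the knockout, with broadly overlapping groups (0.13 ± 0.13, adjusted p = 0.420, edgeR). In the reference transcripts, 13.15% of the 31-base words of Gimap3 also occurred in Gimap5 and 8.02% of those of Gimap5 in Gimap3, so part of the reads of either can be assigned to both. With the counts of both genes added up before the fit, the sum was at -0.20 ± 0.10 and was not called (adjusted p = 0.110, edgeR). The log2 ratio of Gimap3 to Gimap5 counts within libraries was 2.33 ± 0.22 in WT and 1.91 ± 0.03 in the knockout (exact two-sided permutation p = 0.1, the smallest possible), so a difference between their changes was not shown at 0.05. For the other 6 members at most 8.36% of such words were shared with any other gene, 0% for Gimap4 and Gimap9 and 2.2% for Gimap7. Words were compared in the direction of the transcripts only, so overlap between opposite strands, as of Gimap1os and Gimap1, is not counted.

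The remaining members moved little. Gimap9 (ENSMUSG00000051124.7) was at 64.5, 68.5 and 66.8 CPM in WT and at 54.4, 62.2 and 55.4 CPM in the knockout (-0.22 ± 0.07, adjusted p = 0.0252, edgeR). Its groups did not overlap, but the call was lost without WT replicate 1 (adjusted p = 0.0510, edgeR) and without knockout replicate 1 or 3 (adjusted p = 0.0819 and 0.0877, edgeR).

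Gimap1 (ENSMUSG00000090019.6), needed for the survival of mature T and B cells, was at 61.1, 70.4 and 61.3 CPM in WT and at 47.8, 61.9 and 54.3 CPM in the knockout. Only knockout replicate 2 reached into the WT range, and the change was not called (-0.23 ± 0.10, adjusted p = 0.0760, edgeR). Without knockout replicate 2, Gimap1 was at -0.34 and called (adjusted p = 0.0217, edgeR). Gimap8 (ENSMUSG00000064262.8), whose protein carries more than a single GTPase domain, was at 100, 97.4 and 109 CPM in WT and at 88.8, 104 and 93.4 CPM in the knockout (-0.10 ± 0.07, adjusted p = 0.295, edgeR). A value that misses the threshold does not show that Gimap1, Gimap5 and Gimap8 were the same in both groups.

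The make-up of the family differed between the groups in a way that does not rest on any scaling between libraries. As a share of the counts of all 8 genes, Gimap6 took 18.9%, 17.3% and 19.3% in WT and 12.2%, 14.2% and 13.9% in the knockout. Gimap7 took 1.83 ± 0.112% in WT and 0.939 ± 0.0680% in the knockout (SD, n = 3), and Gimap4 25.5 ± 1.51% and 22.0 ± 1.15%. The shares of the other 5 members were higher in the knockout. For Gimap8 the share was 11.2 ± 0.541% in WT and 14.1 ± 1.13% in the knockout, and for Gimap5 it was 4.76 ± 0.581% and 6.96 ± 0.0580%. In all 8 genes the 3 knockout shares lay outside the range of the 3 WT shares, which with 3 against 3 libraries gives p = 0.1 in an exact two-sided permutation test, the smallest it allows. The 8 shares sum to 100% in each library, so they do not vary independently. Within libraries, the log2 ratio of Gimap7 to Gimap5 counts was -1.38 ± 0.15 in WT and -2.89 ± 0.09 in the knockout, a pair chosen after its values were seen (exact permutation p = 0.1).

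**Figure D2:**
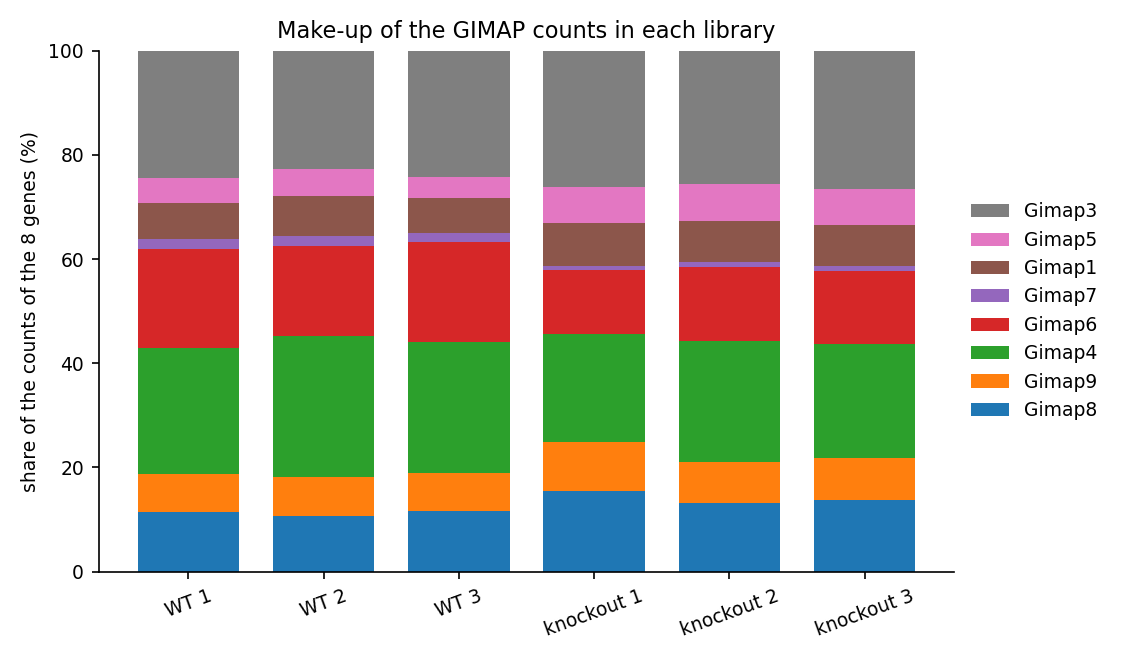
Share of each GIMAP gene (%, y axis) in the summed counts of the 8 genes, 1 bar per library, with genes stacked in chromosomal order from Gimap8 at the bottom. The bands of Gimap6 and Gimap7 are narrower in all 3 knockout libraries, and those of Gimap8 and Gimap5 wider.

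Levels can be compared between genes only per length, here as CPM per kb of the longest protein-coding transcript in GENCODE M21. In WT the order was Gimap4 (129 ± 9.55 CPM per kb), Gimap3 (101 ± 4.0), Gimap6 (52.9 ± 3.35), Gimap9 (48.1 ± 1.42), Gimap1 (43.0 ± 3.55), Gimap8 (32.3 ± 1.83), Gimap5 (22.2 ± 2.57) and Gimap7 (13.1 ± 0.482). Only Gimap9 and Gimap1 had overlapping library ranges among neighbours in that order. In the knockout Gimap4 (83.5 ± 17.2 CPM per kb) and Gimap3 (82.9 ± 12.03) overlapped, with Gimap3 the higher of the 2 in knockout replicates 1 and 3, as did each neighbouring pair from Gimap9 (41.4 ± 3.07) down to Gimap5 (24.3 ± 3.96). Gimap6 went from the third place to the sixth (29.0 ± 6.57 CPM per kb), and Gimap7 stayed the lowest (5.08 ± 1.15). With the length of all annotated exons instead, Gimap4 and Gimap3 remained at the top and Gimap5 and Gimap7 at the bottom, while Gimap1 fell to the sixth place in both groups and Gimap6 took place 4 in the knockout. The lengths used by the authors may differ.

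The 3 genes with the steepest decreases are neighbours. In GENCODE M21 the order along chromosome 6 is Gimap8, Gimap9, Gimap4, Gimap6, Gimap7, Gimap1, Gimap5 and Gimap3, and the log2 fold changes in that order were -0.10, -0.22, -0.62, -0.87, -1.37, -0.23, 0.13 and -0.28. Among the 8 members the value was lower at each gene from Gimap8 to Gimap7 and was -0.23 at the next member, Gimap1, close to that of Gimap9. Gimap6 and Gimap3 lie on the strand opposite to the other 6. This order is a description of 8 genes, without a test.

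The annotated noncoding RNA next to Gimap7, Gimap1os, is read from the opposite strand and overlaps Gimap1. It was at 11.8, 11.2 and 11.3 CPM in WT and at 4.06, 7.45 and 5.89 CPM in the knockout, without overlap (-0.98 ± 0.19, adjusted p = 0.00286, edgeR). The library kit keeps strand, but the sources used here do not give whether the counting used it, and reads of Gimap1os and Gimap1 may not be fully separated. Gm28053, an entry that shares sequence with Gimap7, Gimap1 and Gimap5, was at 8.16 ± 1.38 and 6.48 ± 1.02 CPM (-0.33 ± 0.16, adjusted p = 0.118, edgeR). The noncoding 4833403J16Rik, between Gimap5 and Gimap3, rose from 6.08 ± 0.713 to 8.91 ± 2.01 CPM (0.55 ± 0.18, adjusted p = 0.0279, edgeR). Ordered by lowest annotated coordinate, Gm28053 comes between Gimap6 and Gimap7, and Gimap1os between Gimap7 and Gimap1. In that order the run of values along the members does not hold over every entry of the cluster. As Gm28053 shares sequence with members beyond that place, its position is that of its first base only. These 3 entries were chosen after their values were seen.

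Genes flanking the cluster went both ways. Of the 8 nearest named protein-coding genes on each side, 13 were in the table. Among these 5 rose (38.5%) and 4 fell (30.8%) while 4 missed the threshold, and their median log2 fold change was 0.22. Over all tested genes 23.1% were called higher and 24.5% lower. On the Gimap3 side the first 3 genes rose. Tmem176b and Tmem176a, which encode ion channel proteins of intracellular membranes and are known as Th17-associated genes, went from 23.1 ± 5.68 to 57.4 ± 3.44 CPM (1.31 ± 0.16) and from 25.1 ± 4.74 to 77.0 ± 4.32 CPM (1.61 ± 0.12). Aoc1, the histamine-degrading diamine oxidase, rose from 0.324, 0.445 and 0.420 CPM in WT to 6.86, 3.78 and 4.51 CPM in the knockout (3.66 ± 0.28, adjusted p = 2.26e-05, edgeR).

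Further out on that side Gpnmb, a glycoprotein of macrophages and pigment cells, fell from 4.43 ± 1.15 to 0.914 ± 0.520 CPM (-2.26 ± 0.45). The summed counts of 6 myeloid markers were also lower in the knockout, at 26.9 to 33.2 CPM against 45.9 to 61.9 CPM in WT, and their part in the Gpnmb value was not tested. Most of that sum was Cst3 (42.4 CPM in WT and 24.9 CPM in the knockout), the only marker of the 6 that was called. Malsu1 (-0.42 ± 0.09) and Igf2bp3, an mRNA-binding protein gene (-1.05 ± 0.12), fell as well. On the Gimap8 side the nearest gene, AI854703 (-0.22 ± 0.17), was not called, and neither were Repin1 (0.07 ± 0.10), Lrrc61 (0.22 ± 0.12) and Zfp467 (0.29 ± 0.14) further out. Zfp775, a zinc finger gene and the second from the cluster, fell from 12.3 ± 0.451 to 8.49 ± 0.230 CPM (-0.54 ± 0.10). Sspo rose by 1.94 ± 0.22, from 1.10 ± 0.253 to 4.24 ± 0.550 CPM. Atp6v0e2, a proton pump subunit gene, rose by 0.69 ± 0.21 (adjusted p = 0.0206, edgeR), a call that was lost without WT replicate 1 (adjusted p = 0.0827, edgeR) or knockout replicate 3 (adjusted p = 0.0760, edgeR).

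**Figure D3:**
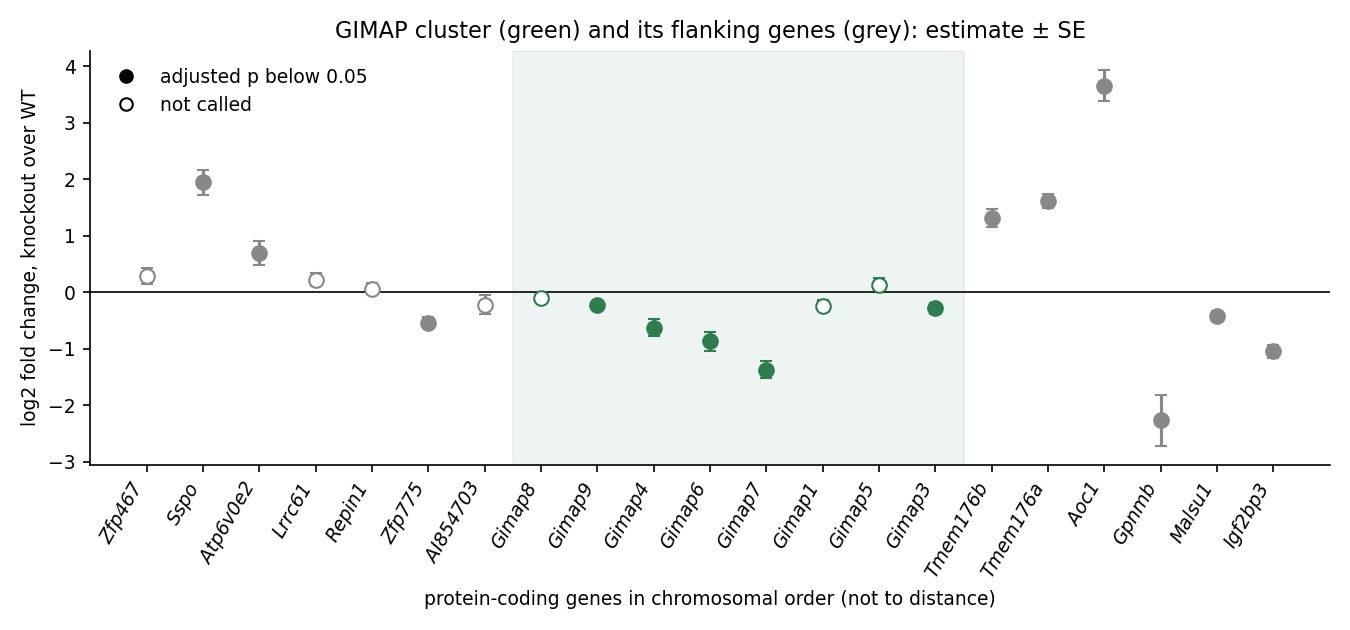
Knockout over WT log2 fold change, with its SE, for the 8 GIMAP genes (green, shaded) and the 13 flanking protein-coding genes in the table (grey), in chromosomal order and not to distance; filled points are called at an adjusted p below 0.05. Values fall from -0.10 at Gimap8 to -1.37 at Gimap7, return to between -0.28 and 0.13, and are 1.31 to 3.66 in the next 3 genes.

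The 3 steepest members were called lower, while Gimap5, within the same cluster, was not called. For that reason their upstream sequences are shown. Each is the 250 bases before the RefSeq transcription start (GRCm38.p6), 5′ to 3′ on the gene's own strand, and all 8 members had an entry. Capitals mark matches, on either strand, to the core letters TGTGGT (RUNX factors), GGAAGT (ETS factors), GTAAACA (FOXO factors) and CCACCC (KLF factors).
Gimap7, chr6:48718371-48718620, plus strand: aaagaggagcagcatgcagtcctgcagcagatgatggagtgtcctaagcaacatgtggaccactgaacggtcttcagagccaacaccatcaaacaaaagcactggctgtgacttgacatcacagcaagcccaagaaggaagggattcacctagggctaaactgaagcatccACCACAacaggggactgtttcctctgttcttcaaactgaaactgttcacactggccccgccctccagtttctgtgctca
Gimap6, chr6:48708245-48708494, minus strand: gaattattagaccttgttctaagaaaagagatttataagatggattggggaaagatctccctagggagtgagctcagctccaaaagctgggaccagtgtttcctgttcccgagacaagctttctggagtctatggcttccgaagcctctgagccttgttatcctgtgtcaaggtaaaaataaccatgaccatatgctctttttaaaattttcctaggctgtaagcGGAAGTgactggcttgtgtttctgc
Gimap4, chr6:48684328-48684577, plus strand: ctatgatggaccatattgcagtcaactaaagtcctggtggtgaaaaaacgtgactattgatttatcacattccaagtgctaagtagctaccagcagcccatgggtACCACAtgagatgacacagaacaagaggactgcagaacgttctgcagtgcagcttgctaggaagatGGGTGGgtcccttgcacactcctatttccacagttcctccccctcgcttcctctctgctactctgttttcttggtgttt
Gimap5, chr6:48745947-48746196, plus strand: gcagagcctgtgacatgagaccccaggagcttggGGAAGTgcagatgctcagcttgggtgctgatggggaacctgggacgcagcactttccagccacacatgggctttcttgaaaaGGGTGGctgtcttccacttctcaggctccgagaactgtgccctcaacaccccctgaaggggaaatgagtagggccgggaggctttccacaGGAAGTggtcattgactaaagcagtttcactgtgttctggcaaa
The window of Gimap7 held a RUNX match 79 to 74 bases before the start, and that of Gimap4 a RUNX match at 145 to 140 bases and a KLF match at 79 to 74 bases. The window of Gimap6 held an ETS match at 25 to 20 bases, and that of Gimap5 an ETS match at 44 to 39 bases, a further ETS match at 216 to 211 bases and a KLF match at 134 to 129 bases. No motif was shared by Gimap7, Gimap6 and Gimap4. Of 32817 windows of the same length before annotated mouse starts, 14% held the RUNX letters, 19.7% the ETS letters, 3.16% the FOXO letters and 28.1% the KLF letters. Among the members not printed, Gimap1 held a RUNX match, Gimap3 a FOXO and a KLF match, and Gimap9 and the second of the Gimap8 windows a KLF match. Matches describe the letters only, and no binding was measured.

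The knockout libraries differed among themselves in the same order for every member. Knockout replicate 2 was the highest and knockout replicate 1 the lowest of the 3 for all 8 GIMAP genes, an order seen in 17.3% of all tested genes. The summed level of the 8 genes was 885, 916 and 928 CPM in WT and 578, 789 and 680 CPM in knockout replicates 1 to 3, so WT libraries were close together and knockout libraries were spread.

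B cells also make GIMAP transcripts, and markers of B cells varied between libraries. The summed level of 11 B cell markers (Cd74 left out, per library totals) was 5.96, 33.7 and 5.35 CPM in WT replicates 1 to 3 and 5.30, 66.7 and 109 CPM in knockout replicates 1 to 3. None of these 11 was called. Cd74 had another pattern, at 38.8, 61.5 and 37.3 CPM in WT and 163, 154 and 234 CPM in the knockout (TMM-scaled). It was called higher (2.00 ± 0.29, adjusted p = 0.00461, edgeR), and was raised in knockout replicate 1 as well. Knockout replicate 1 had the lowest B cell marker sum and the lowest GIMAP sum (578 CPM). Knockout replicate 3 had the highest marker sum, with a GIMAP sum of 680 CPM against 789 CPM in knockout replicate 2. WT replicate 3, at a marker sum of 5.35 CPM, held the highest GIMAP sum (928 CPM). The part of B cells in the GIMAP values was not tested. With the log2 marker sum as a covariate, 6 members were called lower, as were 3307 of all 15361 tested genes. Gimap7 was at -1.52 ± 0.16, Gimap6 at -1.02 ± 0.17, Gimap4 at -0.79 ± 0.12 and Gimap1 at -0.35 ± 0.09 (adjusted p = 0.00897 for Gimap1, edgeR). Of the knockout libraries only replicate 1 had a low marker sum, so this fit leans on that library. As it was the lowest knockout library for every member, larger decreases were partly built in. Without WT replicate 2 and knockout replicates 2 and 3, an alternative added with the data in view, with knockout replicate 1 as the only knockout library, Gimap7 was at -1.71, Gimap6 at -1.30 and Gimap4 at -0.89, while Gimap5 was at -0.03. That library was the lowest of the 3 for every member, so larger decreases were fixed by the choice, and it is assumed to vary like the WT libraries. The summed level of 6 T cell markers was 1858 to 2044 CPM in the knockout and 2181 to 2251 CPM in WT, with 3 of the 6 called lower, and the summed level of 4 Th17 markers was 430 to 569 CPM and 794 to 1062 CPM. The part of either in the GIMAP values was not tested. Of 7 endothelial markers, a cell type that also makes GIMAP proteins, only Pecam1 was in the table, at 11.2 to 12.5 CPM in the knockout and 16.7 to 19.7 CPM in WT (per library totals). The 2 NK cell markers in the table summed to 5.58, 8.08 and 6.30 CPM in knockout replicates 1 to 3 and 9.08 to 10.9 CPM in WT. The 2 CD8 T cell markers summed to 5.58, 14.9 and 7.96 CPM in knockout replicates 1 to 3 and 8.68 to 11.3 CPM in WT. Both sums have the order of the GIMAP sums among the knockout libraries, and their part in the GIMAP values was not tested.

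**Figure D4:**
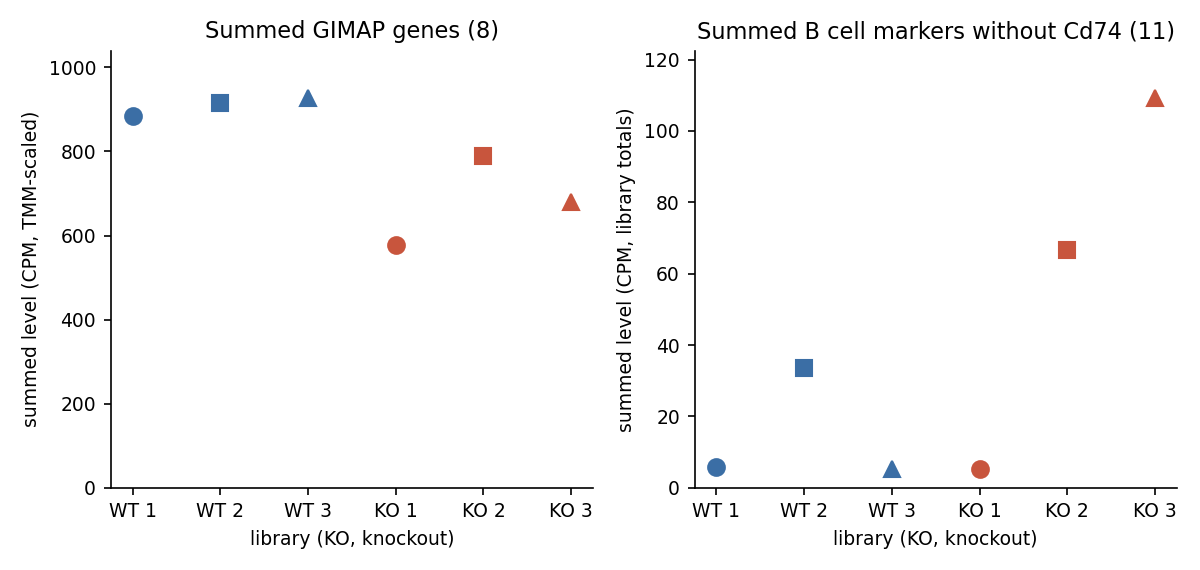
Left, summed CPM (TMM-scaled) of the 8 GIMAP genes in each library; right, summed CPM (library totals) of 11 B cell markers; blue points are WT and red points knockout. GIMAP sums are 885 to 928 in WT and 578 to 789 in the knockout, while B cell marker sums are raised in WT replicate 2 and knockout replicates 2 and 3.

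Genes whose products are known to bind or act with GIMAP proteins were called in both directions. Of 17 tested, 5 rose (29.4%) and 6 fell (35.3%) while 6 missed the threshold. Among all tested genes 23.1% were called higher and 24.5% lower. The median log2 fold change of the 17 was -0.02 (0.06 with upper-quartile scaling and 0.02 with library totals). The GABARAP genes, which attach to autophagosome membranes, fell. Gabarapl1 went from 66.4 ± 1.93 to 40.3 ± 4.17 CPM (-0.72 ± 0.08, adjusted p = 0.000118, edgeR), Gabarapl2, whose product GIMAP6 binds, from 56.1, 65.4 and 58.4 to 42.1, 46.0 and 42.1 CPM (-0.47 ± 0.07), and Gabarap by 0.55 on the log2 scale. Map1lc3a fell by 0.86 from a low level, and Map1lc3b was at -0.01 ± 0.06. Within the BCL2 family, Bcl2l11, which encodes pro-apoptotic BIM, rose from 16.6 ± 0.691 to 41.1 ± 3.06 CPM (1.31 ± 0.08), and Bcl2l1, which opposes apoptosis, by 0.80 ± 0.07. Of the pore-forming death effectors, Bak1 fell by 0.67 ± 0.10 on the log2 scale and Bax rose by 0.53 ± 0.10 (adjusted p = 0.00271, edgeR). Bcl2, an anti-apoptotic partner of GIMAP5, was at 0.17 ± 0.07 (adjusted p = 0.0737, edgeR). Gsk3b, the kinase held in check through GIMAP5, was at 0.10 ± 0.06 (adjusted p = 0.227, edgeR). Gabarapl2, Gabarap, Map1lc3a, Map1lc3b, Bax, Bcl2 and Gsk3b were named after their values were seen.

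Genes of naive and quiescent T cells, the state in which GIMAP transcripts are high, did not fall with the GIMAP genes: of 22 tested, 12 rose and 2 fell while 8 missed the threshold, and the median was 0.30. Among all tested genes 23.1% were called higher. Tob1, an inhibitor of T cell proliferation, rose from 17.6 ± 1.08 to 31.1 ± 0.913 CPM (0.82 ± 0.08), and Tsc22d3 and Klf3 rose by 1.00 and 0.92. Bach2, a repressor that restrains effector programmes, went from 207 ± 5.46 to 288 ± 16.2 CPM (0.48 ± 0.06). Satb1, a chromatin organiser of T cells, fell by 0.43 ± 0.06 on the log2 scale and was named after its value was seen. The list differs from the GIMAP genes in direction by its counts, and no test of that difference was run.

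Other GTPase families were read beside the GIMAP genes. Of 18 interferon-inducible GTPase genes 12 rose and none fell while 6 missed the threshold, and the median was 0.88; over all tested genes 23.1% were called higher. Gbp6 went from 6.47 ± 0.235 to 33.8 ± 5.52 CPM (2.39 ± 0.12, adjusted p = 4.37e-06, edgeR), and Mx1, Gbp8 and Gbp9 rose by 2.58, 1.66 and 1.46. Of 11 septin genes, which encode filament-forming GTPases with a related fold, 1 rose and 4 fell while 6 missed the threshold, and the median was -0.25. That is 36.4% called lower, against 24.5% of all tested genes. Sept9 fell from 478 ± 14.8 to 299 ± 19.0 CPM (-0.67 ± 0.07), and Sept1, Sept11 and Sept4 fell by 0.28, 0.25 and 1.33, Sept4 from 0.835 ± 0.167 CPM.

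Among 10464 other genes with at least 50 counts on average, those whose centred log2 CPM over the 6 libraries lay closest to the mean GIMAP profile were Tbxa2r, Il10ra, Bnip3l, Ms4a6b and Tmem120a, with root mean square differences of 0.050, 0.051, 0.054, 0.057 and 0.063. Tbxa2r encodes a thromboxane receptor, Il10ra the IL-10 receptor alpha chain and Bnip3l a mitophagy receptor. Their log2 fold changes were -0.44 ± 0.12, -0.38 ± 0.13, -0.41 ± 0.09, -0.51 ± 0.11 and -0.49 ± 0.10. The closest single genes were Prelid2 for Gimap7, Zbtb32 for Gimap6, Gramd1b for Gimap4, Slc25a17 for Gimap3 and Brip1os for Gimap9, at 0.092, 0.078, 0.070, 0.033 and 0.014. Likeness here is over 6 libraries that fall into 2 groups and share depth and scaling.

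**Figure D5:**
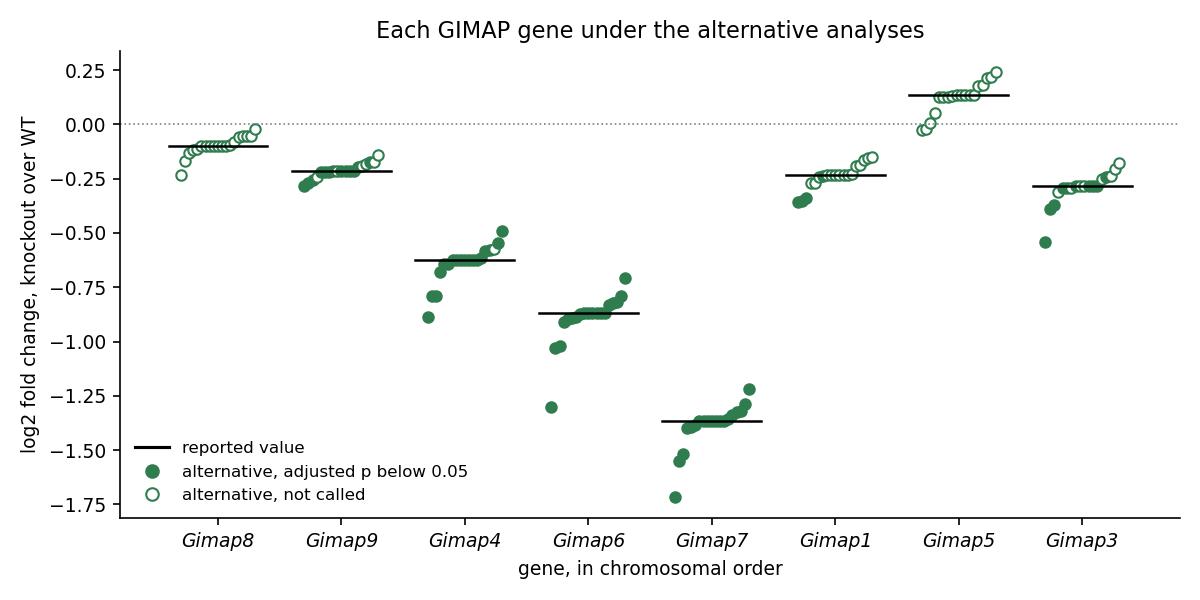
Log2 fold change of each GIMAP gene, in chromosomal order, under the alternative analyses (points, sorted by value within a gene; filled where the adjusted p is below 0.05), with the reported value as a black line. Gimap7 and Gimap6 are filled throughout, Gimap4 in 18 of 19 alternatives, and Gimap5 and Gimap8 in none.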

How the data were processed

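The deposited values are expected counts: read counts per gene as estimated upstream, as whole numbers. Per the submitters' processing notes, Salmon, DESeq2 and DESeq were used, with no versions or roles; the sources used here give no build or annotation. No deposited row has fewer than 3 libraries at 10 counts or more. IDs were matched without version to GENCODE M21 (15138 of 15452). No rounding was needed. The replicates compared were distinct libraries (chi-square per degree of freedom at least 24.31).

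Counts were fitted with edgeR 4.0.16 (filterByExpr, which left 15361 genes, TMM, robust quasi-likelihood F test, genotype as the only term) in R 4.3.3. The biological coefficient of variation was 13.8%. CPM are TMM-scaled, except marker sums. The fit was tested on simulated data. Alternatives were other scalings, DESeq2 1.42.0, limma-voom (limma 3.58.1), filters, a test against 1.2-fold, a replicate block, a B cell marker covariate, each library left out, and Gimap3 with Gimap5 summed. Shared sequence was counted in words of 31 bases.

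The members and lists were chosen with earlier results of these data known. Named were all members and flanking genes, up to 4 called genes of each list with the smallest p, and the genes closest in pattern, leaving out predicted, sex-linked and receptor segment genes. A 0 in a library allows up to 3 counts; intervals were not needed for the members. Deviations of same-numbered libraries from their group means correlated at r = -0.098, 0.093 and -0.259, which does not settle whether they are paired.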

Additional observations from a re-analysis of the deposited data

How the results depend on the processing

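Gimap7 and Gimap6 were called lower in all 19 alternatives (log2 fold change -1.71 to -1.22 and -1.30 to -0.71), Gimap4 in 18 of 19, Gimap9 in 13 of 19, Gimap3 in 10 of 18 and Gimap1 in 4 of 19, while Gimap5 and Gimap8 were called in none. These include the alternative with knockout replicate 1 as the only knockout library, where larger decreases were fixed because it is the lowest for every member. The fit with the B cell marker covariate leans on the same library. Upper-quartile factors, a filter of at least 50 counts in 3 libraries and the test against 1.2-fold each gave 3 called members instead of 5. Among all genes, 2927 of 15361, 3183 of 12183 and 1856 of 15361 were called lower in these fits. Leaving out 1 library gave 3 to 6 members, while 2920 to 3643 of all genes were called lower. In the test against 1.2-fold 8 naive and quiescent genes, 2 septin genes and 3981 of all genes were called. Septin calls were 3 with the 50-count filter and with the B cell marker covariate, 2 without the 3 libraries with raised B cell markers, and 3 to 6 with 1 library left out. The sign of uncalled values turned for Gimap5 (-0.021 with the covariate, -0.027 without those 3 libraries) and for Repin1 (-0.044 and -0.132). The causes of these shifts were not tested. The labels do not say whether replicate numbers pair the libraries. With the replicate block 6 members were called, Gimap1 being added (-0.239, adjusted p = 0.0171, edgeR), and 7218 of all genes. WT and knockout replicate 2 correlated best with each other (r = 0.093), whereas the other libraries did not correlate best with their own number. These values do not settle the pairing. No scaling moved the median of all genes by more than 0.079.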
